A study of Mus musculus with 18 samples.

Results

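The comparison set the effect of FGF9 in adipogenic induction medium (AI) against its effect in osteogenic induction medium (OI). It used 12 of the 18 RNA-seq samples of a study of wild-type mouse bone marrow stromal cells (BMSCs), which were isolated from compact bone and are progenitors of osteoblasts and adipocytes. Cells were collected on day 4, with 3 samples each of AI with 20 ng/ml FGF9 (AI_F9), AI without FGF9 (AI), OI with 20 ng/ml FGF9 (OI_F9) and OI without FGF9 (OI). OI supplied ascorbate-2-phosphate and beta-glycerol phosphate beside dexamethasone, and AI contained a higher dose of dexamethasone with rosiglitazone, the phosphodiesterase inhibitor 3-isobutyl-1-methylxanthine and insulin, so the media differed in several agents at once and these cannot be told apart. The remaining 6 samples, in culture medium with (CM_F9) or without FGF9 (CM), entered the estimate of the spread and 1 side comparison. For each gene the measure was the log2 fold change of AI_F9 over AI minus the log2 fold change of OI_F9 over OI, called the difference here. A positive difference means that the FGF9 effect was higher in AI than in OI, which includes a smaller fall. The members were all expressed genes, chosen by expression: 17631 of 56691 genes had enough reads to be tested. Reads in 1 group alone could be enough, so genes that were high in a single group are among them. The gene lists used below were instead written with earlier results of these data known.

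FGF9 is a secreted growth factor that binds FGF receptors, receptor tyrosine kinases which pass their signal through the RAS-ERK, PI3K and PLC-gamma cascades. ERK signaling switches on its own inhibitors, among them the Sprouty proteins and the phosphatase DUSP6, and the ETV transcription factors, so these genes are widely read as a trace of FGF signaling. Rosiglitazone activates PPARG, the master transcription factor of adipocytes, whereas beta-glycerol phosphate and ascorbate serve mineralization and collagen maturation in osteogenic cultures. The question was which genes answered it differently.

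The 12 libraries held 16803771 to 19808459 counted reads. Levels are given in FPKM, reads scaled to exonic length and library total, as mean ± SD (n = 3) or per sample, while fold changes and differences come from the counts with a correction for library composition (TMM), so they need not equal the ratio of 2 FPKM. That correction matters here: the TMM factors were 0.906 to 0.928 in AI_F9, 1.05 to 1.06 in AI, 1.02 to 1.03 in OI_F9 and 0.990 to 1.00 in OI, and the 10 most abundant genes took 12.2 to 12.5% of the reads in AI_F9, 6.03 to 6.21% in AI, 9.62 to 9.91% in OI_F9 and 9.15 to 9.51% in OI. Mitochondrial transcripts took 7.15 to 7.55% of the reads in AI_F9, 4.29 to 4.68% in AI, 2.85 to 3.15% in OI_F9 and 2.14 to 2.27% in OI. The adipocyte marker Fabp4 averaged 2003 FPKM in AI_F9, 707 in AI, 35.4 in OI_F9 and 15.4 in OI, whereas Lep, which encodes the adipocyte hormone leptin, had 4 reads over the 3 AI_F9 samples and 0 in AI. The osteoblast factor Sp7 stood at 2.17 FPKM in AI_F9, 3.03 in AI, 9.57 in OI_F9 and 9.17 in OI. RNA of other cells was present, as 14 macrophage markers show. They summed to 423 to 467 FPKM in AI_F9, 1475 to 1711 in AI, 1201 to 1248 in OI_F9 and 1369 to 1687 in OI. Most of that sum was Lyz2, which averaged 342 FPKM in AI_F9, 1182 in AI, 651 in OI_F9 and 791 in OI. In bulk RNA, fewer cells of a type and less RNA per cell cannot be told apart, and the labels do not say whether the 3 samples of a group came from separate mice, so p values cover the spread among these samples only.

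FGF9 acted differently in the 2 media on 2474 genes (14.0% of those tested), called at an absolute difference of at least 1 on the log2 scale and an adjusted p of at most 0.05 in edgeR's quasi-likelihood test. Of these, 1057 were higher in AI (6.00%) and 1417 lower (8.04%). Taken on mean FPKM in place of the log2 scale, the difference kept its sign for 1024 and 1305 of them. Further, less and larger below refer to the log2 scale. The adjusted p alone was met by 7052 genes (40.0%), 3465 of them higher and 3587 lower, so many differences were well resolved but small. The middle part of all differences ran from -0.45 to 0.42 with a median of -0.00. Scaling by the library total in place of TMM shifted the median difference to -0.26 and called 645 higher and 2144 lower, which makes 23.1% of the calls higher against 42.7% with TMM. Directions below are therefore relative to the bulk of genes, and the counts with that scaling stand beside a list where it moved a count of calls by over 1.5 times. Every AI replicate pair can be set against every OI replicate pair, 9 log2 differences in each medium, and these did not overlap for 968 of the 1057 genes called higher and 1290 of the 1417 called lower, against 17.6% and 17.8% of all tested genes that separated in the same directions.

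**Figure D1:**
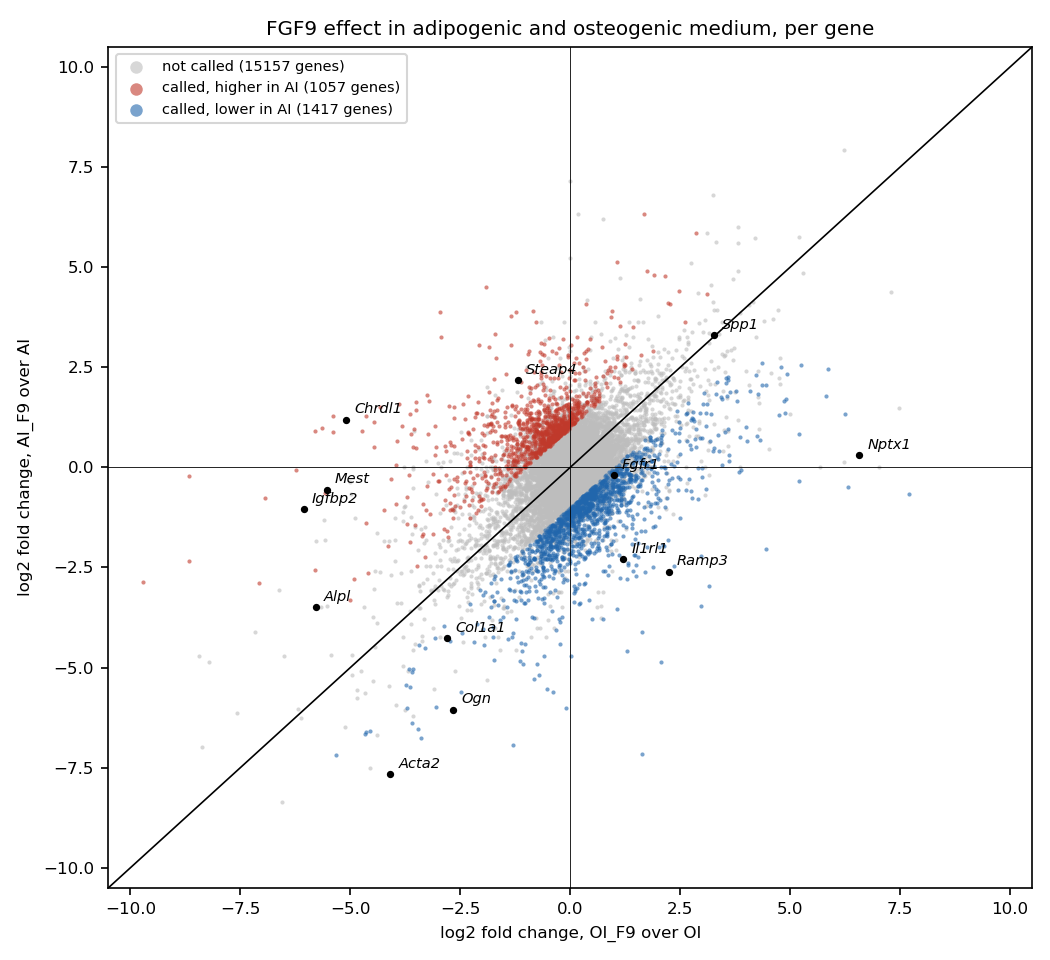
Each point is a tested gene, placed by its log2 fold change of OI_F9 over OI (horizontal) and of AI_F9 over AI (vertical), with equal effects on the diagonal line. The 1057 genes called higher in AI lie above the diagonal, the 1417 called lower lie below it, and Chrdl1, Steap4, Ramp3 and Il1rl1 sit in the quadrants where the effects had opposite signs.

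Across all tested genes the effects in AI and OI, which share no sample, had a Pearson r of 0.45 and a Spearman rho of 0.27 (across genes, which are not replicates). FGF9 was called on 1174 genes up (6.66%) and 1644 down (9.32%) in AI, and on 966 up (5.48%) and 1070 down (6.07%) in OI. Of the 3912 genes called in either medium, 1846 (47.2%) were also called for the difference. Genes that moved the same way in both media numbered 852, and for 649 of them, 283 up and 366 down, the difference was not called. Of the 775 genes that rose in AI and were not called in OI, 373 had a called difference, and of the 1101 that fell in AI and were not called in OI, 666 had one. The corresponding counts were 269 of 569 for genes that rose in OI and 245 of 525 for genes that fell there. A call in a single medium was thus backed by a called difference for some of the genes only. Opposite calls in the 2 media were rarer, with 46 genes up in AI and down in OI and 44 the other way round.

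The difference can also be read as the gap between the media, the log2 ratio of AI to OI, with and without FGF9. With FGF9 the gap was wider for 1799 and narrower for 675 of the 2474 called genes (27.3% narrower, against 36.7% of all tested genes). Fgfr1 shows a gap that closed, with a log2 ratio of 0.04 for AI_F9 over OI_F9 and 1.22 for AI over OI. Mest shows one that opened, with 4.52 for AI_F9 over OI_F9 and -0.46 for AI over OI. In Igfbp2 the sign of the gap turned, with 1.75 for AI_F9 over OI_F9 and -3.27 for AI over OI. In culture medium (CM), the FGF9 effect lay nearer to the OI effect than to the AI effect for 85.1% of the genes called higher and 92.1% of those called lower, against 73.5% of all tested genes. Called genes were chosen for AI and OI effects that lie apart, whereas these effects were close for most tested genes. The shares are therefore not like for like, and their gap is no result about the called genes.

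Among genes past a read floor in all 4 groups, the largest opposite effects, up in AI and down in OI, were in Chrdl1 (chromosome X, 142068670 to 142177258, GRCm39), which encodes a secreted antagonist of bone morphogenetic proteins (BMPs). Its level was 2.24, 2.2 and 2.19 FPKM in AI_F9, against 1.14, 1.23 and 0.97 in AI. In osteogenic medium it was 0.38, 0.73 and 0.49 FPKM in OI_F9, against 18, 18.4 and 16.4 in OI. No sample of any of the 4 groups overlapped another group, and the difference was 6.29 ± 0.18 (SE; edgeR, adjusted p = 2.01e-17). Steap4, a metalloreductase of adipose tissue, had 89.2, 93.6 and 95.1 FPKM in AI_F9, against 24.0, 23.4 and 23.8 in AI. Osteogenic cultures gave 5.01, 5.83 and 5.58 FPKM in OI_F9, against 12.8, 11.8 and 11.8 in OI, and the difference was 3.37 ± 0.10. Arxes1, an adipocyte gene required for adipogenesis in mouse cells, averaged 49.5 ± 2.03 FPKM in AI_F9 and 15.4 ± 0.541 in AI, and 0.373 ± 0.222 in OI_F9 and 1.31 ± 0.327 in OI. Aldh1l2, a mitochondrial enzyme of folate metabolism, reached 5.37 ± 0.5 FPKM in AI_F9 and 2.41 ± 0.182 in AI, whereas OI_F9 had 1.29 ± 0.270 and OI 5.42 ± 0.605. The mean levels of Aldh1l2 in AI_F9 and in OI without FGF9 were thus close to each other. The matrix protease Adamts12 stood at 7.23 ± 0.206 FPKM in AI_F9 and 2.76 ± 0.508 in AI, and at 3.72 ± 0.684 in OI_F9 and 12.3 ± 0.416 in OI. Tenm4, a teneurin of the cell surface, had 8.42 ± 1.03 FPKM in AI_F9 and 3.83 ± 0.677 in AI, and 1.05 ± 0.210 in OI_F9 and 4.07 ± 0.650 in OI.

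Genes down in AI and up in OI included receptors and a mineralization inhibitor. Ramp3, a subunit of calcitonin-family receptors (chromosome 11, 6608521 to 6627475), had 0.89, 1.14 and 0.86 FPKM in AI_F9, against 5.51, 7.12 and 7.72 in AI. It had 2.28, 2.06 and 2.73 FPKM in OI_F9, against 0.77, 0.17 and 0.46 in OI, where the 3 samples spread widely, and the difference was -4.84 ± 0.41. Gfra1, a receptor subunit for the neurotrophic factor GDNF, was at 3.95, 4.22 and 4.52 FPKM in AI_F9, against 18.4, 20.1 and 17.6 in AI. In OI_F9 it was at 5.89, 6.79 and 6.29 FPKM, against 1.24, 1.70 and 1.37 in OI, without overlap in either medium. Il1rl1, the receptor of interleukin 33, averaged 2.52 ± 0.161 FPKM in AI_F9 and 14.2 ± 0.618 in AI, and 16.3 ± 0.575 in OI_F9 and 6.82 ± 0.654 in OI. Its ligand Il33 had a difference of -2.13, with 3.67 ± 0.483 FPKM in AI_F9 and 4.68 ± 0.286 in AI, and 7.11 ± 0.252 in OI_F9 and 1.73 ± 0.367 in OI. Cd24a, a small glycosylated surface protein, was at 7.10 ± 0.912 FPKM in AI_F9 and 22.9 ± 1.97 in AI, and at 19.9 ± 2.12 in OI_F9 and 5.19 ± 0.507 in OI. Tmem35a, a chaperone of nicotinic acetylcholine receptors, averaged 1.01 ± 0.140 FPKM in AI_F9 and 4.05 ± 0.273 in AI, and 5.98 ± 0.741 in OI_F9 and 2.08 ± 0.122 in OI. Mgp, matrix Gla protein, which inhibits calcification, was by far the most abundant of these, at 673, 712 and 787 FPKM in AI_F9, against 2134, 2050 and 2507 in AI. OI_F9 held 1756, 1869 and 2303 FPKM of Mgp, against 682, 699 and 788 in OI, so AI_F9 and OI ended in the same range and so did AI and OI_F9.

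**Figure D2:**
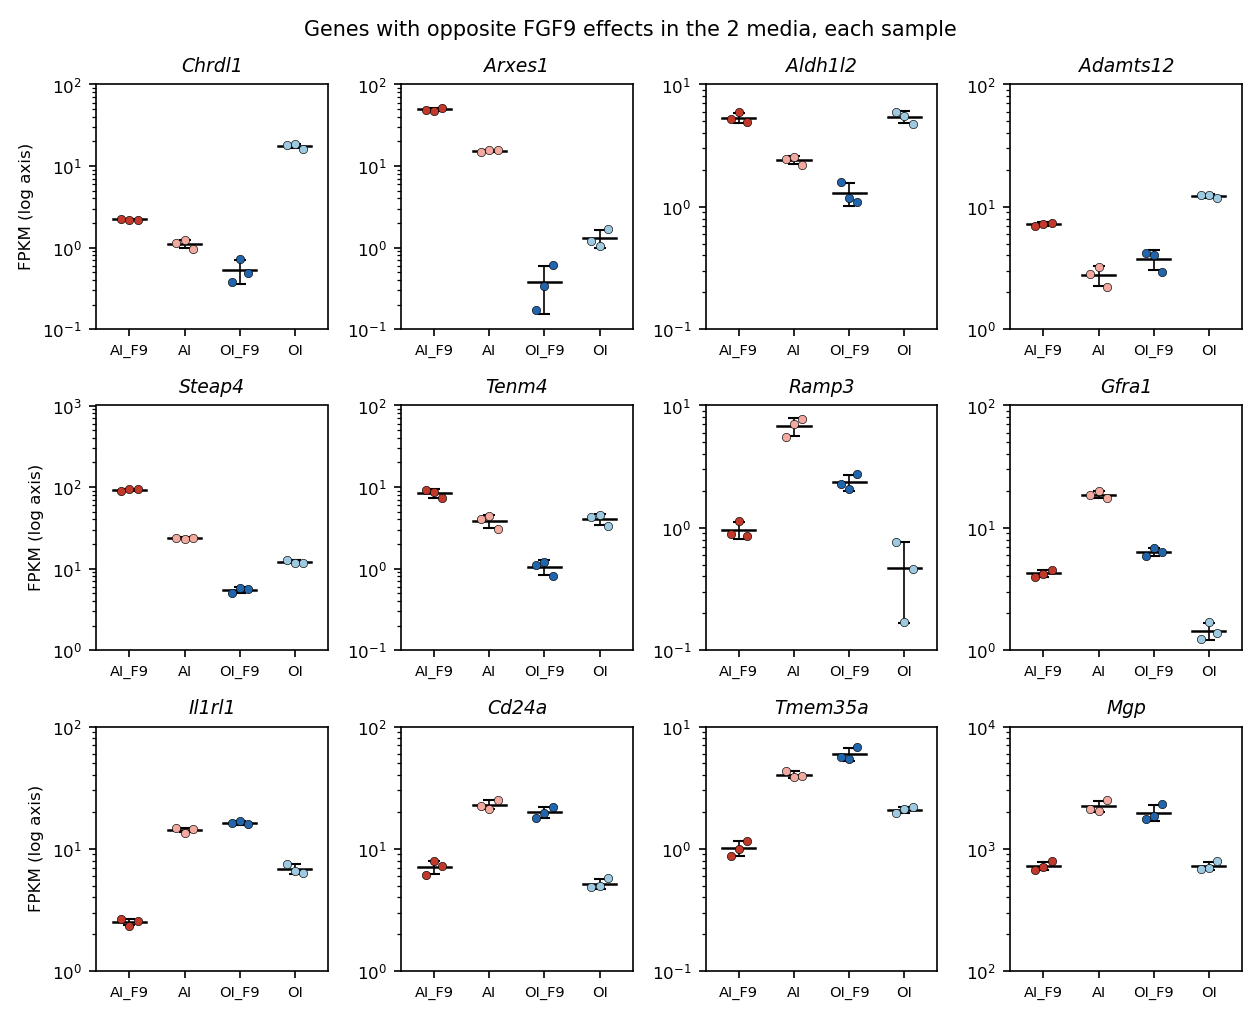
Level in FPKM (log axis, a scale per panel) of the 12 genes with the largest opposite effects, in AI_F9, AI, OI_F9 and OI; points are samples, the long bar is the mean and the error bars are the SD (n = 3). The panels from Chrdl1 to Tenm4 are higher in AI_F9 than in AI and lower in OI_F9 than in OI, and those from Ramp3 to Mgp show the reverse.

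Other large positive differences came from genes that FGF9 lowered strongly in OI and less, or not at all, in AI. Mest, an imprinted gene of the hydrolase family expressed in growing fat (chromosome 6, 30723546 to 30748464), was at 18.5, 18.4 and 19.2 FPKM in AI_F9, against 31.7, 33.0 and 30.9 in AI. It was nearly lost in osteogenic cultures, with 0.97, 0.95 and 0.84 FPKM in OI_F9, against 42.6, 39.4 and 41.9 in OI, and its difference was 4.98 ± 0.11 (95% confidence interval 4.75 to 5.21). Igfbp2, which binds insulin-like growth factors (IGFs), averaged 6.15 ± 0.466 FPKM in AI_F9 and 14.6 ± 1.47 in AI, and 2.05 ± 0.301 in OI_F9 and 132 ± 11.1 in OI. The IGF-binding protein protease Pappa2 averaged 0.173 ± 0.0306 FPKM in AI_F9 and 0.313 ± 0.0208 in AI, and 0.467 ± 0.00577 in OI_F9 and 21.7 ± 2.98 in OI. Cilp, a matrix protein of cartilage, stood at 0.473 ± 0.121 FPKM in AI_F9 and 0.380 ± 0.0200 in AI, and at 4.93 ± 0.789 in OI_F9 and 105 ± 5.47 in OI. Both Pappa2 and Cilp were already low in AI without FGF9. Snhg11 and Cth were instead called up in AI and not called in OI. Snhg11, a long noncoding RNA, had 7.02 ± 0.130 FPKM in AI_F9 and 0.867 ± 0.0503 in AI, and 1.24 ± 0.0153 in OI_F9 and 1.67 ± 0.157 in OI. Cth, which makes cysteine from cystathionine, had 20.5, 20.7 and 21.7 FPKM in AI_F9, against 2.44, 2.64 and 2.78 in AI. The 6 osteogenic samples of Cth lay between 0.81 and 1.33 FPKM, and OI_F9 and OI overlapped.

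Among the 12 largest negative differences past the read floor, those without opposite calls were of 2 kinds. In Nptx1, Pcdh20, Slitrk6 and Gdf6, FGF9 raised the gene in OI and no effect was called in AI. Nptx1, a secreted pentraxin (chromosome 11, 119429545 to 119438579), had 1.99, 1.79 and 1.82 FPKM in AI_F9, against 1.62, 1.9 and 1.74 in AI, which overlap. In OI_F9 it reached 59.7, 49.5 and 48.1 FPKM, against 0.71, 0.41 and 0.47 in OI, and the difference was -6.27 ± 0.19 (edgeR, adjusted p = 2.85e-17). The BMP-family ligand Gdf6 averaged 3.61 ± 0.266 FPKM in AI_F9 and 4 ± 0.494 in AI, and 23.8 ± 1.51 in OI_F9 and 2.11 ± 0.412 in OI. The protocadherin Pcdh20 averaged 0.693 ± 0.0551 FPKM in AI_F9 and 1.02 ± 0.0854 in AI, and 8.60 ± 0.545 in OI_F9 and 0.230 ± 0.101 in OI. Slitrk6, a transmembrane protein of the synapse, was at 0.930 ± 0.0954 FPKM in AI_F9 and 1.82 ± 0.263 in AI, and at 7.24 ± 0.165 in OI_F9 and 1.02 ± 0.0603 in OI. In Acta2, Ogn and Ccn3, FGF9 lowered the gene in both media and, on the log2 scale, further in AI. Acta2, smooth muscle actin, had 1.14, 1.01 and 0.67 FPKM in AI_F9, against 213, 211 and 242 in AI. It had 44.9, 38.5 and 51.0 FPKM in OI_F9, against 675, 706 and 829 in OI, so FGF9 lowered it by 7.67 on the log2 scale in AI and by 4.09 in OI. Ogn, the small leucine-rich proteoglycan osteoglycin, averaged 9.90 ± 0.390 FPKM in AI_F9 and 756 ± 15.7 in AI, and 172 ± 17 in OI_F9 and 1053 ± 20.2 in OI. Ccn3, a matricellular protein, averaged 4.22 ± 0.345 FPKM in AI_F9 and 146 ± 3.68 in AI, and 90.2 ± 4.83 in OI_F9 and 183 ± 16.1 in OI.

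Of the 13 genes that the study follows in these cells, 6 were called for the difference. Alpl, the alkaline phosphatase of mineralizing cells (chromosome 4, 137469044 to 137523695), fell in both media and less in AI: it was at 4.90, 4.35 and 4.44 FPKM in AI_F9, against 59.3, 58.6 and 60.3 in AI. Osteogenic samples held 0.88, 1.02 and 1.2 FPKM of Alpl in OI_F9, against 60.3, 53.2 and 52.2 in OI, and the difference was 2.29 ± 0.14. Col1a1, the main collagen of bone, fell in both media and, on the log2 scale, further in AI. It had 9.55, 9.78 and 8.03 FPKM in AI_F9, against 200, 218 and 192 in AI. It was at 230, 199 and 206 FPKM in OI_F9, against 1471, 1372 and 1419 in OI, with a difference of -1.48 ± 0.10. Alpl and Col1a1 thus had differences of opposite sign. Pparg had 42.1 ± 2.79 FPKM in AI_F9 and 22.5 ± 1.52 in AI, and 10.1 ± 1.68 in OI_F9 and 12.2 ± 0.451 in OI, with a difference of 1.43. Adipoq, the adipocyte hormone adiponectin, had 539 ± 41.1 FPKM in AI_F9 and 193 ± 10.3 in AI, and 22.8 ± 1.59 in OI_F9 and 14.6 ± 0.945 in OI, with a difference of 1.10, which was 0.84 with scaling by the library total and then not called. The homeobox factor Dlx5 had a difference of -1.06, which was -0.93 without AI_F9 replicate 3 and then not called. The receptor Fgfr1 had a difference of -1.17.

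The other 7 were not called. Spp1, which encodes osteopontin, rose in both media and was at 5224, 5553 and 5558 FPKM in AI_F9, against 623, 572 and 705 in AI, and at 11566, 12674 and 14026 FPKM in OI_F9, against 1315, 1165 and 1363 in OI. Its difference was 0.04 with a 95% confidence interval of -0.32 to 0.41. Fgfr2, another FGF receptor, fell in both media, by 2.67 in AI and by 2.43 in OI on the log2 scale, with a difference of -0.25. Differences were -0.23 for the lipid droplet protein Plin1, -0.24 for Yap1, -0.29 for the osteoblast factor Sp7 and 0.34 for the adipogenic factor Cebpa. Runx2, the master factor of osteoblasts, had 4.73 ± 0.678 FPKM in AI_F9 and 10.3 ± 0.396 in AI, and 9.28 ± 0.980 in OI_F9 and 9.56 ± 0.597 in OI. Its difference was -0.82 ± 0.11, short of the fold threshold with TMM and past it, at -1.08, with scaling by the library total.

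Of the gene lists, that of the ATF4 stress response had the most members called higher. The lists were written with earlier results of these data known, so their counts describe them and support nothing on their own. Each list count stands against 6.00% of all tested genes called higher and 8.04% called lower. ATF4 is a transcription factor made when amino acids run short, when the endoplasmic reticulum (ER) is overloaded or when mitochondria are stressed, and it switches on amino acid synthesis and transport, one-carbon enzymes and, over time, factors of cell death. Of 38 members tested, 24 were called higher, against 6.00% of all tested genes, and none was called lower (3 were lower at the adjusted p alone). The median difference was 1.2, against -0.00 over all tested genes, and with scaling by the library total 18 were higher and 1 lower. Atf4 itself had 134, 140 and 147 FPKM in AI_F9, against 95.9, 90.0 and 107 in AI, and 40.3, 43.4 and 43.6 FPKM in OI_F9, against 69.3, 68.6 and 82.4 in OI. Its groups did not overlap and its difference was 1.57 ± 0.10, although neither effect alone reached the fold threshold. Psat1, of serine synthesis, was at 75.9, 76.7 and 83.0 FPKM in AI_F9, against 20.4, 17.9 and 19.9 in AI, and at 16, 16 and 15.1 FPKM in OI_F9, against 20.2, 20.1 and 22.1 in OI. Phgdh, the entry enzyme of that pathway, averaged 19.4 ± 0.855 FPKM in AI_F9 and 8.78 ± 1.07 in AI, and 13.7 ± 1.17 in OI_F9 and 25.1 ± 1.89 in OI. Mthfd2, a mitochondrial one-carbon enzyme, averaged 37.6 ± 2.33 FPKM in AI_F9 and 14.9 ± 1.92 in AI, and 4.02 ± 0.598 in OI_F9 and 9.76 ± 0.794 in OI. Trib3, a pseudokinase that ATF4 induces, averaged 15.4 ± 0.404 FPKM in AI_F9 and 3.39 ± 0.991 in AI, and 0.980 ± 0.180 in OI_F9 and 1.68 ± 0.294 in OI. Ddit3, the stress factor CHOP, averaged 43.6 ± 1.48 FPKM in AI_F9 and 20.2 ± 1.2 in AI, and 9 ± 1.32 in OI_F9 and 11.6 ± 1.10 in OI. Members that were not called included Sesn2, with a difference of -0.46, and the cystine carrier Slc7a11, with -0.62. The stress hormone Fgf21 was scarce elsewhere, with 363 reads over the 3 AI_F9 samples, against 29 in AI, 1 in OI_F9 and 3 in OI.

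Because these genes share a known regulator, their promoters were read from RefSeq (GRCm38.p6) in windows of 300 bases, 250 before and 50 after the annotated start. The letters searched were TGATGNAA on both strands, the core of the C/EBP-ATF response element to which ATF4 binds together with a C/EBP partner. Of the 38 members 31 had a promoter in the table, and 12 of these (38.7%) held the letters, against 4.51% of 27025 genes in the same windows. Among called members 9 of 20 held them and among members not called 3 of 11, a difference that was not tested. The list was made of genes of this known regulator, so its higher share of the letters says nothing about the FGF9 effect. A match is a description of the sequence and not a measured binding site. The 3 promoters shown are those of the members above the read floor with the largest differences whose start also matched an annotated transcript start, and capitals mark the match (on the minus strand it reads TTNCATCA). They are Chac1 (chr2:119350992-119351291, plus strand, match starting 193 bases before the gene start), a glutathione-degrading enzyme, Asns (chr6:7693160-7693459, minus strand, 23 bases before), asparagine synthetase, and Atf3 (chr1:191183284-191183583, minus strand, 110 bases before), a stress transcription factor. Each runs 5′ to 3′ along the strand of its gene.
Chac1: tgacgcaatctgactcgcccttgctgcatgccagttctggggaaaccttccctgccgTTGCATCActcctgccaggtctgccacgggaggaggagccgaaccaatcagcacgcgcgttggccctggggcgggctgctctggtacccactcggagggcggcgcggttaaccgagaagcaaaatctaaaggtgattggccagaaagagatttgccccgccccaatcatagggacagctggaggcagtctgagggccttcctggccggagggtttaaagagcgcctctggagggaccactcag
Asns: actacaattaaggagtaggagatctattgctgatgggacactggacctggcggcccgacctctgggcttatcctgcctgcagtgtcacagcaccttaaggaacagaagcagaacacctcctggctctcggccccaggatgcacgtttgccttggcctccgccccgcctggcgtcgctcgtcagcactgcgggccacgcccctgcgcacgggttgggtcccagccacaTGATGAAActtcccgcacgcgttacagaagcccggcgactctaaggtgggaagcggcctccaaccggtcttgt
Atf3: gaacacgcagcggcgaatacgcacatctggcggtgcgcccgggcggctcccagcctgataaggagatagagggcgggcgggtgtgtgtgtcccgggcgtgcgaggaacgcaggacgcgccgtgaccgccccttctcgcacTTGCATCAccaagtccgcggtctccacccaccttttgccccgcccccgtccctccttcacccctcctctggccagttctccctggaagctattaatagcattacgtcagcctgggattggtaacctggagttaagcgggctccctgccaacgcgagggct
The difference was 3.25 ± 0.34 for Chac1, 2.55 ± 0.12 for Asns and 1.70 ± 0.21 for Atf3. Chac1 had 5.95, 6.09 and 7.26 FPKM in AI_F9, against 2.73, 3.09 and 2.48 in AI, and 0.84, 0.88 and 0.65 FPKM in OI_F9, against 2.44, 2.51 and 3.25 in OI. Asns had 68.3, 68.9 and 74.8 FPKM in AI_F9, against 26.5, 27.5 and 28.9 in AI, and 10.8, 10.7 and 12 FPKM in OI_F9, against 20.3, 18.6 and 25.1 in OI. For both genes AI_F9 was highest and OI_F9 lowest, and AI and OI without FGF9 lay between them. Atf3 was less clear in AI, with 7.82, 8.24 and 8.64 FPKM in AI_F9, against 4.83, 6.24 and 7.91 in AI, where the groups overlapped, and it stood at 5.24, 4.61 and 5.68 FPKM in OI_F9, against 10.9, 9.23 and 12.3 in OI.

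Lists of cell growth also leaned to positive differences. Cholesterol synthesis and uptake, under the control of the sterol sensor SREBP2, had 13 of 24 members called higher and none lower, with all 24 differences positive and a median of 1.08. Hmgcs1, an early enzyme of the pathway, had 161, 154 and 164 FPKM in AI_F9, against 70.8, 69.0 and 74.7 in AI, and 15.3, 16.6 and 15.2 FPKM in OI_F9, against 28.8, 26.4 and 29.7 in OI. DNA replication and mitosis genes had 18 of 42 called higher and none lower, and 7 higher with scaling by the library total. Their median FGF9 effect was 0.56 in AI and -0.39 in OI. Top2a, the topoisomerase of dividing cells, was at 13.6, 13.3 and 13.6 FPKM in AI_F9, against 7.58, 7.87 and 7.48 in AI, and at 12.2, 13.0 and 10.7 FPKM in OI_F9, against 15.3, 13.8 and 15.7 in OI. The proliferation marker Mki67 averaged 9.59 ± 0.257 FPKM in AI_F9 and 6.74 ± 0.705 in AI, and 14.2 ± 1.45 in OI_F9 and 19.6 ± 0.722 in OI. Of 10 cyclins and cyclin-dependent kinase inhibitors, the growth inhibitor Cdkn1c was called higher (2.37) and Cdkn2b lower (-1.77), with 2 lower with scaling by the library total. In a list of 10, these calls are close to the 6.00% and 8.04% of all tested genes. ER chaperones and unfolded protein response genes had 5 of 24 called higher, and 1 with scaling by the library total, and the main ER chaperone Hspa5 had a difference of 1.47. Ribosomal proteins gave a contrast, with none of 51 called by edgeR or DESeq2 and a median of -0.06. In edgeR's test 4 had an unadjusted p under 0.05, and 2 of these an adjusted p of at most 0.05.

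Lists of fat and energy metabolism leaned to positive differences as well. Mature adipocyte genes had 14 of 34 tested members called higher and 1 lower, with a median FGF9 effect of 1.27 in AI and 0.60 in OI. FGF9 itself was called up on 25 and down on 1 of them in AI, and up on 14 and down on 2 in OI. Plin1, not called for the difference, averaged 230 FPKM in AI_F9 and 137 in AI, and 7.99 in OI_F9 and 3.41 in OI. Cd36, Lpl and Car3 were instead lower in OI_F9 than in OI. Cd36, a fatty acid transporter, had 935, 925 and 968 FPKM in AI_F9, against 326, 326 and 334 in AI, and 24.4, 22.1 and 24.4 FPKM in OI_F9, against 31.2, 31.0 and 33.6 in OI. Lpl, the lipase that frees fatty acids from lipoproteins, averaged 743 ± 22.6 FPKM in AI_F9 and 369 ± 12.8 in AI, and 32.7 ± 1.08 in OI_F9 and 52.7 ± 1.11 in OI. Car3, a carbonic anhydrase abundant in fat, averaged 4.79 ± 0.616 FPKM in AI_F9 and 2.84 ± 0.254 in AI, and 0.183 ± 0.0306 in OI_F9 and 2.09 ± 0.175 in OI. Fatty acid synthesis and desaturation genes had 10 of 23 called higher and 1, Elovl7 (-2.42), lower. Scd1, the desaturase that makes oleate, was at 4844, 4548 and 4631 FPKM in AI_F9, against 1057, 1108 and 1006 in AI. It was at 108, 111 and 104 FPKM in OI_F9, against 57.8, 58.6 and 58.2 in OI, so it was higher with FGF9 in both media and the difference was 1.51 ± 0.08. Acaca, which makes malonyl-CoA, averaged 68.4 ± 2.80 FPKM in AI_F9 and 27.7 ± 3.82 in AI, and 5.33 ± 0.635 in OI_F9 and 5.37 ± 0.359 in OI.

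Fatty acid oxidation had 14 of 30 members called higher, the citric acid cycle 10 of 24 and the nuclear-encoded respiratory chain 10 of 72, with none called lower in any of them. These differences lay close to the fold threshold: the medians were 0.97, 0.91 and 0.74, and with scaling by the library total 7, 2 and 1 members were called. Leaving out 1 library gave 5 to 19 called respiratory chain genes, the fewest without OI_F9 replicate 2, AI replicate 1 or AI_F9 replicate 3 and the most without OI_F9 replicate 3 or AI replicate 3. At the adjusted p alone, 66 of the 72 were higher and none lower. Cs, citrate synthase, had 170, 163 and 173 FPKM in AI_F9, against 82.8, 84.1 and 85.0 in AI, and 32.1, 30.9 and 32.4 FPKM in OI_F9, against 30.3, 31.6 and 31.4 in OI. Cycs, cytochrome c, averaged 126 ± 8.94 FPKM in AI_F9 and 49.6 ± 5.62 in AI, and 11 ± 1.08 in OI_F9 and 11.4 ± 0.938 in OI. For both genes the osteogenic groups overlapped and the adipogenic groups did not. Ppara, a nuclear receptor of fatty acid oxidation, averaged 5.65 ± 0.235 FPKM in AI_F9 and 1.40 ± 0.227 in AI, and 0.227 ± 0.116 in OI_F9 and 0.287 ± 0.111 in OI. None of the 13 transcripts of the mitochondrial genome was called by edgeR or DESeq2. All 13 differences were positive with a median of 0.45. In edgeR's test 9 had an unadjusted p under 0.05, and the same 9 had an adjusted p of at most 0.05. Leaving these transcripts out of the counts gave 1093 genes higher and 1388 lower.

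**Figure D3:**
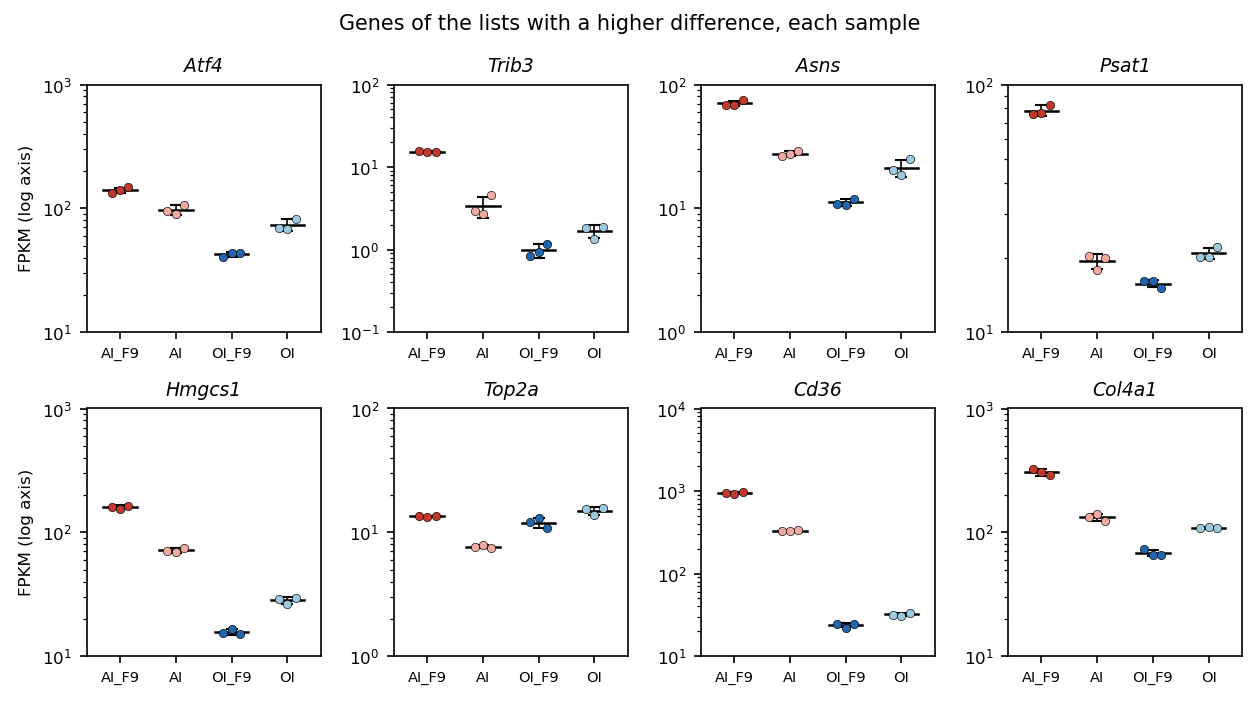
Level in FPKM (log axis, a scale per panel) of 8 genes from the lists with mostly positive differences, in AI_F9, AI, OI_F9 and OI; points are samples, the long bar is the mean and the error bars are the SD (n = 3). In each panel AI_F9 lies above AI and OI_F9 below OI without overlap.

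Collagens went both ways. Of 26 tested, 12 were called higher, namely Col4a1, Col4a2, Col5a1, Col5a3, Col6a1, Col6a2, Col6a3, Col9a1, Col11a2, Col14a1, Col15a1 and Col27a1, and 3 lower, namely Col1a1, Col2a1 and Col8a2. The call of Col2a1, whose difference barely passed the fold threshold, was lost in 10 of the 22 other settings, among them DESeq2 (-0.99) and leaving out AI_F9 replicate 3 (-0.89), AI_F9 replicate 1, AI replicate 2, OI_F9 replicate 3 or OI replicate 1. Col4a1 had 323, 305 and 288 FPKM in AI_F9, against 134, 139 and 124 in AI, and 73.2, 65.8 and 65.7 FPKM in OI_F9, against 107, 111 and 109 in OI. Col15a1 averaged 70.8 ± 3.17 FPKM in AI_F9 and 13.3 ± 0.960 in AI, and 1.89 ± 0.225 in OI_F9 and 1.72 ± 0.312 in OI. The fibrillar collagens Col1a2 and Col3a1 fell in both media with differences of -0.06 and 0.01, and they were not called. Among 58 other matrix genes 8 were called higher and 19 lower, against 6.00% and 8.04% of all tested genes. Sparcl1, a matricellular protein, rose in both media and further in AI, with 34.9 ± 1.51 FPKM in AI_F9 and 1.45 ± 0.198 in AI, and 86.7 ± 4.40 in OI_F9 and 18.7 ± 1.05 in OI. Thbs2, thrombospondin 2, was at 6.14, 6.02 and 5.82 FPKM in AI_F9, against 68.5, 69.6 and 62.2 in AI, and at 70.9, 72.7 and 66.4 FPKM in OI_F9, against 117, 113 and 109 in OI. Eln, elastin, had a difference of 5.06, with a fall in OI to 0.353 ± 0.101 FPKM in OI_F9, against 3.27 ± 0.495 in OI, and it was nearly absent in AI cultures, at 0.0733 ± 0.00577 FPKM in AI_F9 and 0.0233 ± 0.0115 in AI. Of 32 proteases and inhibitors 5 were higher and 10 lower, against the same shares. Timp1, an inhibitor of matrix metalloproteinases, was at 94.5, 106 and 99.2 FPKM in AI_F9, against 405, 399 and 463 in AI, whereas the OI_F9 samples (226, 226 and 267) and the OI samples (213, 218 and 253) overlapped. Its target Mmp2, a gelatinase, averaged 36.7 ± 0.674 FPKM in AI_F9 and 101 ± 2.37 in AI, and 146 ± 0.942 in OI_F9 and 116 ± 2.24 in OI.

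Bone lists leaned to negative differences. Of 31 bone matrix and mineral genes 3 were called higher and 14 lower with a median of -0.63. Some of these were raised by FGF9 in both media and further in OI. Dmp1, a matrix protein of osteocytes, was at 21.6, 19.7 and 20.3 FPKM in AI_F9, against 4.27, 5.24 and 4.56 in AI, and at 200, 211 and 224 FPKM in OI_F9, against 10.8, 5.55 and 3.81 in OI. Bmp2, an osteogenic ligand, was at 6.93, 8.17 and 6.59 FPKM in AI_F9, against 2.44, 2.35 and 2.89 in AI, and at 34.2, 34.4 and 34.1 FPKM in OI_F9, against 1.58, 0.84 and 0.84 in OI. Enpp1 and Ank, which supply extracellular pyrophosphate, an inhibitor of mineralization, behaved likewise, with differences of -1.31 and -1.22. Ank averaged 132 ± 4.44 FPKM in AI_F9 and 34.9 ± 0.997 in AI, and 358 ± 10.4 in OI_F9 and 34.1 ± 1.64 in OI. The phosphate-regulating genes Phex and Fgf23 had too few reads outside OI_F9 for a firm fold: Phex had 62 reads in AI_F9, 28 in AI, 3065 in OI_F9 and 109 in OI, and Fgf23 had 5, 2, 741 and 9 in that order. Ibsp, bone sialoprotein, fell in both media and further in AI, with 5.20 ± 0.505 FPKM in AI_F9 and 380 ± 25 in AI, and 83.1 ± 11.8 in OI_F9 and 664 ± 48.4 in OI. The cytokine pair that governs osteoclast formation parted: Tnfsf11 (RANKL) had 32.4 ± 0.590 FPKM in AI_F9 and 17.9 ± 1.46 in AI, and 1.83 ± 0.123 in OI_F9 and 3.97 ± 0.517 in OI. Its decoy receptor Tnfrsf11b (osteoprotegerin) had 0.533 ± 0.132 FPKM in AI_F9 and 4.27 ± 0.388 in AI, and 20.7 ± 1.9 in OI_F9 and 21.9 ± 0.189 in OI. The differences were 2.23 for Tnfsf11 and -2.65 for Tnfrsf11b. Of 24 osteoblast transcription factors 8 were called lower, among them Msx2 (-2.23), Lef1 (-2.33), Dlx3 (-1.72) and Mef2c (-1.41), and the only one called higher was Atf4.

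**Figure D4:**
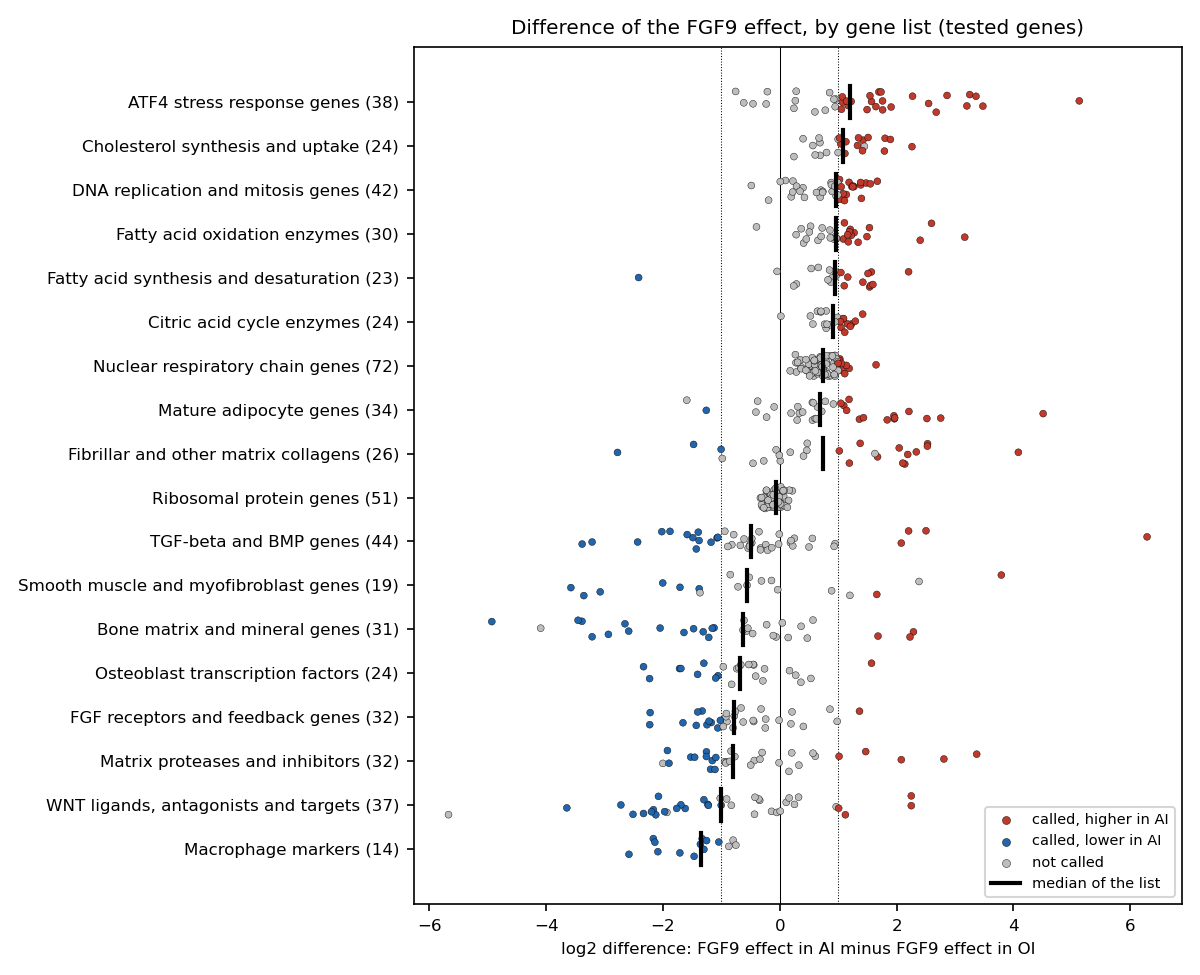
Log2 difference (FGF9 effect in AI minus FGF9 effect in OI) of every tested member of 18 gene lists, with the number tested in parentheses, the list median as a thick bar and dotted lines at the fold threshold of 1. The ATF4 and cholesterol lists have medians above 1, the ribosomal proteins cluster at 0, and the macrophage markers all lie below 0.

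The readouts of FGF signaling leaned to negative differences. Of 32 FGF receptors and feedback genes 11 were called lower and 1 higher (18 lower with scaling by the library total), and the median FGF9 effect was 0.30 in AI and 0.96 in OI. Spry2, a Sprouty inhibitor of receptor tyrosine kinases, had 17.4, 17.1 and 19.0 FPKM in AI_F9, against 14.6, 12.8 and 12.6 in AI, and 33.9, 36 and 33.7 FPKM in OI_F9, against 9.72, 8.30 and 9.25 in OI. The FGF9 samples were higher than their controls without overlap in both media, and the difference was -1.25 ± 0.10. Etv4, a transcription factor that ERK induces, averaged 1.38 ± 0.193 FPKM in AI_F9 and 0.723 ± 0.0115 in AI, and 14.5 ± 0.650 in OI_F9 and 2.52 ± 0.211 in OI. Il17rd, a membrane inhibitor of FGF signaling also called Sef, was lower with FGF9 in AI and higher in OI, with 0.90, 0.82 and 0.70 FPKM in AI_F9, against 1.87, 1.78 and 1.72 in AI, and 4.18, 4.50 and 4.11 FPKM in OI_F9, against 1.84, 1.75 and 1.52 in OI. The immediate early gene Egr3 averaged 1.34 ± 0.219 FPKM in AI_F9 and 4.61 ± 0.641 in AI, and 11.8 ± 3.88 in OI_F9 and 7.22 ± 1.69 in OI. Dusp6, Spry4 and Etv5 had differences of -0.76, -0.90 and -0.91, short of the threshold, and Egr1 had -0.24. The receptor Fgfr1 (chromosome 8, 26003670 to 26065734) was at 49.1, 47.8 and 43.6 FPKM in AI_F9, against 61.0, 63.4 and 60.4 in AI, and at 51.7, 49.9 and 51.2 FPKM in OI_F9, against 27.1, 24.1 and 23.4 in OI. Neither effect alone passed the fold threshold. Fgfrl1, a receptor without a kinase domain, was the member called higher, with 73.8 ± 3.53 FPKM in AI_F9 and 50.8 ± 1.62 in AI, and 21.5 ± 1.10 in OI_F9 and 32.0 ± 1.10 in OI.

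WNT and TGF-beta family genes leaned the same way. Of 37 WNT ligands, antagonists and targets 16 were called lower and 4 higher, with a median of -1.003. There were 2 higher with scaling by the library total, and 10 lower with limma on log2(FPKM + 1). Axin2, a feedback inhibitor and standard target of WNT signaling, had 0.65, 0.68 and 0.63 FPKM in AI_F9, against 2.04, 1.73 and 1.78 in AI, and 2.68, 2.77 and 2.34 FPKM in OI_F9, against 0.97, 0.97 and 0.85 in OI. It was thus lower with FGF9 in AI and higher in OI, with a difference of -2.72 ± 0.22. Notum, an enzyme that inactivates WNT proteins, was instead higher in both, with 14.5, 14.6 and 13.3 FPKM in AI_F9, against 4.14, 4.47 and 4.49 in AI, and 14.1, 12.5 and 14.1 FPKM in OI_F9, against 0.71, 0.79 and 0.79 in OI. With FGF9, Notum reached the same range in both media and the difference of -2.20 came from the lower start in OI. The secreted glycoprotein Dkk3 averaged 40.0 ± 0.803 FPKM in AI_F9 and 201 ± 3.59 in AI, and 143 ± 1.68 in OI_F9 and 105 ± 1.85 in OI. The receptor Fzd4 was called higher, with 39.3 ± 0.225 FPKM in AI_F9 and 21.4 ± 0.580 in AI, and 2.96 ± 0.0700 in OI_F9 and 6.44 ± 0.419 in OI. Of 44 TGF-beta and BMP genes 13 were called lower and 4 higher, against 8.04% and 6.00% of all tested genes. Tgfb1 averaged 4.45 ± 0.161 FPKM in AI_F9 and 10.05 ± 0.225 in AI, and 15.8 ± 1.14 in OI_F9 and 11.3 ± 0.213 in OI. The BMP antagonist Grem1 averaged 46.3 ± 0.964 FPKM in AI_F9 and 92.2 ± 2.73 in AI, and 228 ± 6.44 in OI_F9 and 94.0 ± 3.61 in OI, whereas the antagonist Chrdl1 went the other way.

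**Figure D5:**
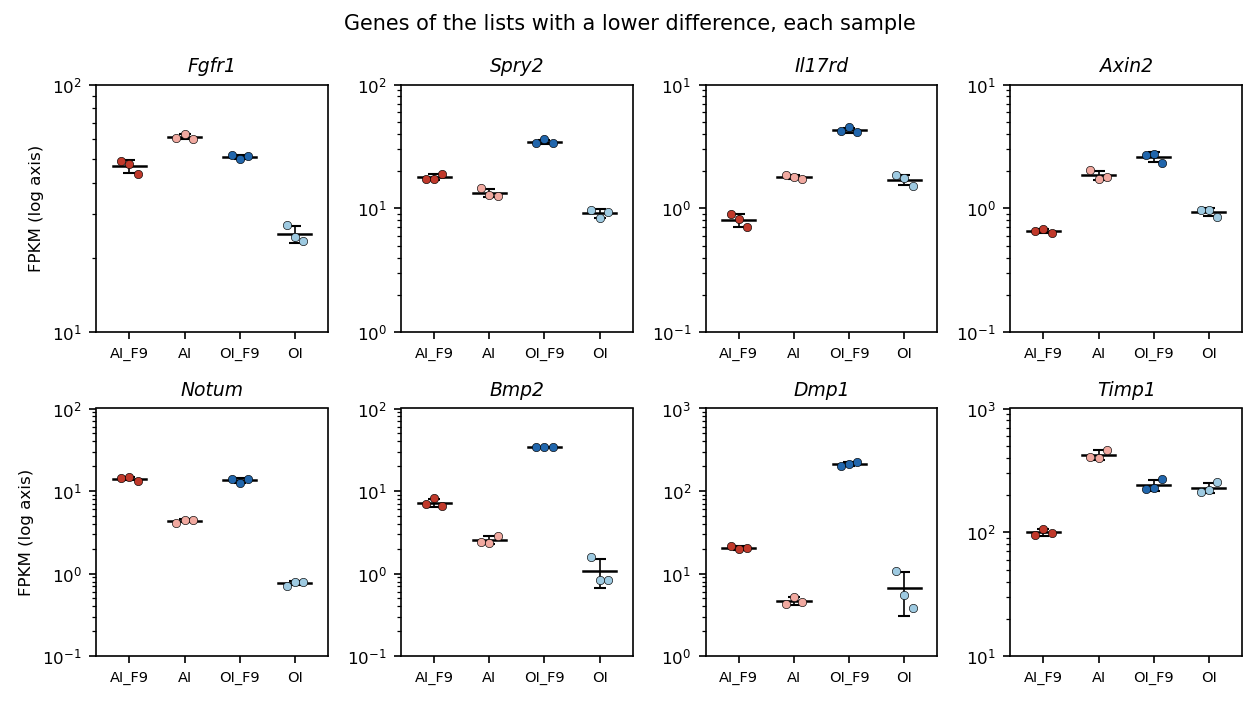
Level in FPKM (log axis, a scale per panel) of 8 genes from the lists with mostly negative differences, in AI_F9, AI, OI_F9 and OI; points are samples, the long bar is the mean and the error bars are the SD (n = 3). Spry2, Notum, Bmp2 and Dmp1 are higher with FGF9 in both media with the larger step in OI, Il17rd and Axin2 step in opposite directions, Fgfr1 is at similar levels in AI_F9 and OI_F9, and Timp1 is lower in AI_F9 with overlapping OI_F9 and OI samples.

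Contractile genes were mostly lower with FGF9 in both media. Of 19 tested smooth muscle and myofibroblast genes 13 fell in AI and 16 in OI, and 6 were called lower for the difference and 2 higher. Myl9, a myosin light chain, averaged 0.383 ± 0.200 FPKM in AI_F9 and 49.0 ± 3.03 in AI, and 16 ± 3.12 in OI_F9 and 164 ± 14.8 in OI. Myh11, the smooth muscle myosin heavy chain, had a difference of 3.79, and it was already low in AI without FGF9, at 0.213 ± 0.0907 FPKM in AI_F9 and 0.300 ± 0.125 in AI, and at 0.133 ± 0.0153 in OI_F9 and 2.23 ± 0.365 in OI. Among 30 YAP, TAZ and TEAD genes 8 were lower and 5 higher (13 lower and 3 higher with scaling by the library total). Over all tested genes 8.04% were called lower and 6.00% higher. Ccn2, a matricellular target of YAP and TGF-beta, had 3.65, 3.48 and 3.11 FPKM in AI_F9, against 79.4, 83.0 and 94.1 in AI, and 84.8, 74.2 and 87.2 FPKM in OI_F9, against 281, 291 and 357 in OI.

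Markers of other cells differed too. All 14 macrophage markers fell in AI and none was called in OI, and 11 of the 14 were called lower for the difference, with a median of -1.34. C1qa, a complement subunit of macrophages, was at 5.91, 4.67 and 6.16 FPKM in AI_F9, against 27.9, 28.3 and 30.9 in AI, and at 53.9, 49.8 and 54.2 FPKM in OI_F9, against 33.2, 35.1 and 46.7 in OI. Csf1r, the macrophage growth factor receptor, averaged 2.14 ± 0.273 FPKM in AI_F9 and 10.4 ± 0.274 in AI, and 15.7 ± 1.70 in OI_F9 and 25.5 ± 2.68 in OI. Of 11 endothelial markers 6 were called lower (1 with limma on log2(FPKM + 1), and 4 at the fewest on leaving out a library), at low levels: the 12 listed genes summed to 6.57 to 7.60 FPKM in AI_F9, 16.1 to 18.3 in AI, 7.32 to 8.32 in OI_F9 and 14.5 to 17.1 in OI. Stromal markers had 3 of 8 called lower, namely Pdgfra (-1.07), Pdgfrb (-1.02) and Eng (-1.63), and none higher, although at the adjusted p alone 4 were higher and 4 lower. The call of Pdgfrb was lost on leaving out OI replicate 3, OI_F9 replicate 1 or AI_F9 replicate 3. None of 6 tested osteoclast markers was called by edgeR or DESeq2. In edgeR's test 1 had an unadjusted p under 0.05 and also an adjusted p of at most 0.05. With scaling by the library total 1 was called lower, and lymphocyte markers were too low to be tested. The part of a changed share of other cells in the differences of the stromal genes was not tested.

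Some genes answered FGF9 alike in both media. Among 103 genes with an FGF9 effect of at least 2 on the log2 scale in the same direction in both, the 6 with the smallest differences were Ccdc3, Arl4d, Tslp, Cyb561, Nuak1 and Tbx2, which the difference itself chose and which are given as a description. Ccdc3, a protein secreted by fat and endothelial cells, had 11.3, 10.8 and 10.6 FPKM in AI_F9, against 0.95, 0.62 and 1.02 in AI, and 52.1, 54.4 and 53.7 FPKM in OI_F9, against 3.52, 3.37 and 3.78 in OI. The levels differed between media and the effects on the log2 scale were 3.86 in AI and 3.86 in OI. Nuak1, an AMPK-related kinase, fell by 2.96 in AI and by 2.94 in OI, with 1.71 ± 0.188 FPKM in AI_F9 and 15.3 ± 0.117 in AI, and 4.50 ± 0.239 in OI_F9 and 33.4 ± 1.73 in OI. The developmental factor Tbx2 rose by 2.2 in AI and 2.17 in OI.

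Several large differences rested on few reads in at least 1 group and are given as reads summed over 3 samples. Col10a1, the collagen of hypertrophic cartilage, had 13 reads in AI_F9, 116 in AI, 4796 in OI_F9 and 516 in OI, and was called in opposite directions in the 2 media. Scg2, a secretory granule protein, had 28 reads in AI_F9, 160 in AI, 3 in OI_F9 and 1327 in OI. Myoc, myocilin, had 25 reads in AI_F9, 15 in AI, 78 in OI_F9 and 3199 in OI. Ces1d, a carboxylesterase of fat and liver, had 701 reads in AI_F9, 445 in AI, 1 in OI_F9 and 16 in OI, and the small heat shock gene Hspb2 had 0, 8, 157 and 309 in that order. Genes called for the difference and in neither medium numbered 333 higher and 295 lower, and the largest of them held few reads: Gm44001 had 52 in AI_F9, 20 in AI, 0 in OI_F9 and 7 in OI, and Zfp520-ps had 6, 21, 39 and 12. Atf4 and Fgfr1 were of this kind at high depth.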

How the data were processed

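Poly(A) RNA of BMSCs was sequenced on day 4 in 6 groups of 3 samples. The labels name cutadapt 1.9.1, HISAT2 2.2.1, the genome build GRCm39 and HTSeq 0.6.1 as the authors' processing, and the deposited counts are raw reads per gene, with the strand setting not given in the sources used here, so overlapping and antisense genes cannot be told apart. The deposited FPKM are those counts per kilobase of the deposited exonic gene size (a length in bases, an other unit) and library total, which held within 1% for 100% of values from 5 FPKM upward. The gene lists and their members were chosen with earlier results of these data known, so counts within a list support nothing on their own.

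Counts of all 18 samples were fitted with edgeR 4.0.16 (R 4.3.3) with 1 mean per group, TMM scaling and filterByExpr over the 6 groups, and the contrast of AI_F9 over AI minus OI_F9 over OI was tested with the quasi-likelihood F test, with Benjamini-Hochberg adjustment over 17631 genes. Calls required an absolute log2 difference of 1 or more with an adjusted p no greater than 0.05, SEs are Wald estimates, and all adjusted p values come from this test unless named otherwise. The common coefficient of variation between replicates was 7.69%. In simulated data of 17373 genes with 100 changed by each fold, 48% of 2-fold and 99% of 4-fold differences were called. Of 17173 unchanged genes 4 were called. A 2-fold difference lies on the fold threshold itself, and 82% of these met the adjusted p alone. The changed genes were drawn above a floor of expected reads in every compared group, so these shares do not cover genes with few reads. They were also far fewer than the 7052 genes that met the adjusted p in the real samples. The shares and the 4 calls are therefore not error rates of the comparison reported here, whose own rates were not tested. All replicate pairs differed by 2.52 to 12.6 times their counting noise, so no sample was counted as a duplicate. Alternatives were DESeq2 1.42.0, limma 3.58.1 on log2(FPKM + 0.5) and on pseudocounts of 0.1 and 1, other scalings, filters and sample sets, and leaving out each of the 12 samples.

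Named genes were, among called genes with at least 5 FPKM in a group and a mean of at least 10 counts in each group, the 12 largest differences per direction and the 6 largest per direction of opposite calls. Added to these were the 4 largest per direction below the count floor and of those called in neither medium, 4 per direction and list by adjusted p, the 13 study genes and the 6 smallest differences. Acaca, Ank, Atf3, Axin2, Bmp2, C5ar1, Chac1, Col14a1, Col15a1, Col1a2, Col27a1, Col3a1, Col5a1, Col5a3, Col6a3, Col9a1, Csf1r, Ddit3, Dmp1, Dusp6, Egr1, Egr3, Enpp1, Etv4, Etv5, Fabp4, Hsd11b1, Ibsp, Lep, Lyz2, Msx2, Notum, Phgdh, Sesn2, Slc7a11, Spry4, Tgfb1 and Trib3 lie outside this rule and were named after their values were seen. Some genes are not reported here.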

Additional observations from a re-analysis of the deposited data

Results flagged for a closer look

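The same FGF9 contrast differed between the media, by edgeR's test of the difference itself, for 1057 genes higher and 1417 lower in AI. Among genes past the read floor, 12 with opposite calls in the 2 media stood out. The difference, in log2 units, was 6.29 for Chrdl1, 3.75 for Arxes1, 3.48 for Aldh1l2, 3.37 for Adamts12, 3.37 for Steap4 and 3.35 for Tenm4, all up in AI and down in OI. It was -4.84 for Ramp3, -4.04 for Gfra1, -3.50 for Il1rl1, -3.37 for Cd24a, -3.26 for Tmem35a and -2.82 for Mgp, all down in AI and up in OI. Groups of 3 samples are too small for a test of single outlying samples.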

How the results depend on the processing

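Across 22 other settings, 140 of 215 named called genes were called in each and 214 kept their sign. The exception was Hspb2, with 0 reads in AI_F9, which went to 0.515 and 0.619 with limma on log2(FPKM + 0.5) and log2(FPKM + 1). Scaling by the library total gave 645 genes higher and 2144 lower. limma on FPKM, which also leaves out TMM, gave 445 higher with a pseudocount of 0.5, 729 higher and 1971 lower with 0.1, and 328 higher and 916 lower with 1, and the cause was not tested. For the effect in AI, limma gave 399, 629 and 292 genes up with pseudocounts of 0.5, 0.1 and 1, and 1036 and 777 down with 0.5 and 1. For the effect in OI it gave 539 and 407 up and 520 and 386 down with 0.5 and 1, and the stricter filter of 50 reads, which tests fewer genes, gave 635 up and 709 down. With limma on log2(FPKM + 1), 6 cholesterol genes, 5 fatty acid oxidation genes, 4 DNA replication and mitosis genes and 2 chondrocyte genes were higher, and 4 osteoblast transcription factors were lower. DESeq2 gave 1099 higher and 1397 lower. Leaving out 1 library gave 971 to 1043 higher and 1338 to 1500 lower. The labels do not say what a replicate number marks: 12 of 18 same-numbered pairs and 4 of 36 other pairs had correlations of their deviations above 0.1, and with the replicate block 1087 genes were higher and 1438 lower, with 99.3% of the calls shared. Genes with few reads in a group limit the folds.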

Other observations

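The list counts in this section stand beside 6.00% of all tested genes called higher and 8.04% called lower. Insulin and IGF genes had 7 of 28 members called higher and 2 lower. Their median of 0.21 turned to -0.04 with scaling by the library total, and the binding proteins of IGFs carried most of the calls. Igfbp5 averaged 56.4 ± 4.98 FPKM in AI_F9 and 34.1 ± 2.13 in AI, and 7.33 ± 0.196 in OI_F9 and 24.3 ± 1.61 in OI. Igfbp4 was nearly level in adipogenic cultures, at 36.4 ± 1.60 FPKM in AI_F9 and 32.8 ± 1.98 in AI, and stood at 30.4 ± 1.66 in OI_F9 and 115 ± 5.60 in OI. Adipogenic transcription factors had 4 of 24 called higher and 1 lower, with a median of 0.21 (2 lower and a median of -0.04 with scaling by the library total). Klf15, a Kruppel-like factor of fat, averaged 9.97 ± 0.730 FPKM in AI_F9 and 9.42 ± 0.396 in AI, and 3.13 ± 0.105 in OI_F9 and 6.5 ± 0.230 in OI, so its difference of 1.39 rested on OI. Triglyceride and droplet genes had 5 of 29 higher and 2 lower, and 3 higher with scaling by the library total. Brown fat genes had 5 of 16 higher and 2 lower, with 3 higher without OI replicate 1. Dio2, which activates thyroid hormone, was at 30.4, 30.4 and 32.3 FPKM in AI_F9, against 55.5, 52.3 and 51.0 in AI, and at 12.7, 17.4 and 13.2 FPKM in OI_F9, against 2.56, 2.57 and 2.56 in OI. Glycolysis genes had 7 of 22 higher and 2 lower, and 3 higher with scaling by the library total.

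Steroid and signaling lists were mixed, beside 6.00% of all tested genes called higher and 8.04% called lower. Glucocorticoid targets had 5 of 22 higher and 3 lower. Hsd11b1, which regenerates active glucocorticoid, rose in both media, to 8.88, 8.19 and 9.20 FPKM in AI_F9, against 0.49, 0.76 and 0.51 in AI, and to 1.94, 1.84 and 2.29 FPKM in OI_F9, against 0.40, 0.39 and 0.46 in OI. The glucocorticoid-induced kinase Sgk1 averaged 34.4 ± 1.60 FPKM in AI_F9 and 137 ± 6.94 in AI, and 108 ± 1.67 in OI_F9 and 137 ± 13.7 in OI. Cyclic AMP genes had 2 of 21 higher and 6 lower (1 higher with scaling by the library total), and Notch genes 2 of 15 higher and 3 lower (5 lower with scaling by the library total). Notch3 averaged 1.16 ± 0.0721 FPKM in AI_F9 and 5.28 ± 0.781 in AI, and 3.79 ± 0.180 in OI_F9 and 4.50 ± 0.628 in OI. Chondrocyte genes had 6 of 17 higher and 3 lower, with a median of 0.20 (-0.05 with scaling by the library total). Comp, a cartilage matrix protein, fell in both media, to 35.9 ± 2.85 FPKM in AI_F9, against 98.8 ± 1.10 in AI, and to 92.8 ± 3.47 FPKM in OI_F9, against 572 ± 8.22 in OI.

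Immune lists are given beside the macrophage markers, whose sum was mostly Lyz2. They summed to 423 to 467 FPKM in AI_F9, 1475 to 1711 in AI, 1201 to 1248 in OI_F9 and 1369 to 1687 in OI. The part of those cells was not tested. Complement genes had 4 of 20 higher and 5 lower (2 higher with scaling by the library total and 0 with limma on log2(FPKM + 1)), and the lower ones, C1qa, C1qb, C1qc, C3ar1 and C5ar1, are genes of macrophages and other leukocytes. Chemokines and cytokines had 3 of 33 higher and 5 lower (1 higher and 10 lower with scaling by the library total). The 3 higher calls are near the 6.00% over all tested genes. Interferon and antigen presentation genes had 2 of 35 higher and 1 lower (0 higher and 3 lower with that scaling), with a median of 0.11, against 6.00% called higher and 8.04% called lower over all tested genes.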
